A study of Rattus norvegicus with 90 samples.

Results

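The transcripts described here were present in liver and kidney at similar levels and at far lower levels, or not at all, in heart. They are 150 of the 40071 rat transcripts listed, and they were chosen on the vehicle libraries of both times. TPM, an abundance scaled by transcript length and by the library's total, was averaged in each organ, and a transcript was kept when its liver and kidney means lay within 4-fold of each other and both were at least 20 times the sum of the heart mean and 0.1 TPM. This left 225 transcripts, and the members are the 150 with the highest smaller of the liver and kidney means. The series holds RNA-seq of liver, kidney, and heart in 90 libraries, 5 in each of 18 groups of organ, time, and dose. Male Sprague-Dawley rats, purchased at 10 weeks of age and carrying a jugular catheter, received an intraperitoneal injection of vehicle (saline, 3 ml/kg), a low dose of thioacetamide (25 mg/kg), or a high dose (100 mg/kg). Organs were taken 8 or 24 h later. The 8 h rats were injected in the morning and had no food. The 24 h rats were injected in the late afternoon and had food at first and none during the last 8 h. Comparisons between times therefore also compare feeding schedules and the time of day of the injection. Whole kidneys and hearts were powdered while frozen, and the labels do not say which libraries came from the same rat.

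Thioacetamide is a liver toxicant. Enzymes of the liver oxidize it to reactive products that bind proteins and injure hepatocytes, first around the central veins of the lobules. The liver and the proximal tubule of the kidney share much of their metabolic equipment, including the making of glucose, the breakdown of amino acids, and the conjugation and transport of foreign compounds, much of which the heart lacks. Transcripts held by both organs therefore allow one and the same message to be followed in an organ that thioacetamide injures and in another that received the same injection. The members are named by their Ensembl transcript identifiers, since no table used here pairs them with genes, and their functions are not analysed here.

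In vehicle libraries the smaller of the liver and kidney means ran from 11.1 to 1971 TPM, with a median of 57.7. The level was higher in liver for 71 members and in kidney for 79, and 66 had means within 1.5-fold of each other. For 39 members the 9 liver and 10 kidney libraries did not overlap, a count that was not made for all transcripts. In heart, 37 members had a mean above 1 TPM, and 3 were at 0 in all 10 vehicle libraries. These levels are what the rule selected on and are given as a description. Places 149 and 150 were taken by ENSRNOT00000001565 (smaller mean 11.4 TPM) and ENSRNOT00000089073 (11.1 TPM). The first transcripts left out were ENSRNOT00000072402 (10.8 TPM) and ENSRNOT00000001882 (10.5 TPM), so no gap in level sets the members apart from the transcripts below them. Members had a median length of 1808.5 bases, against 1281 for all transcripts. ENSRNOT00000071447 and ENSRNOT00000080096, both of 681 bases, had the same estimated count in all 90 libraries to within 1 count. They cannot be told apart and add 2 to every count below that includes them. Whether other members come from the same gene was not analysed here.

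**Figure D1:**
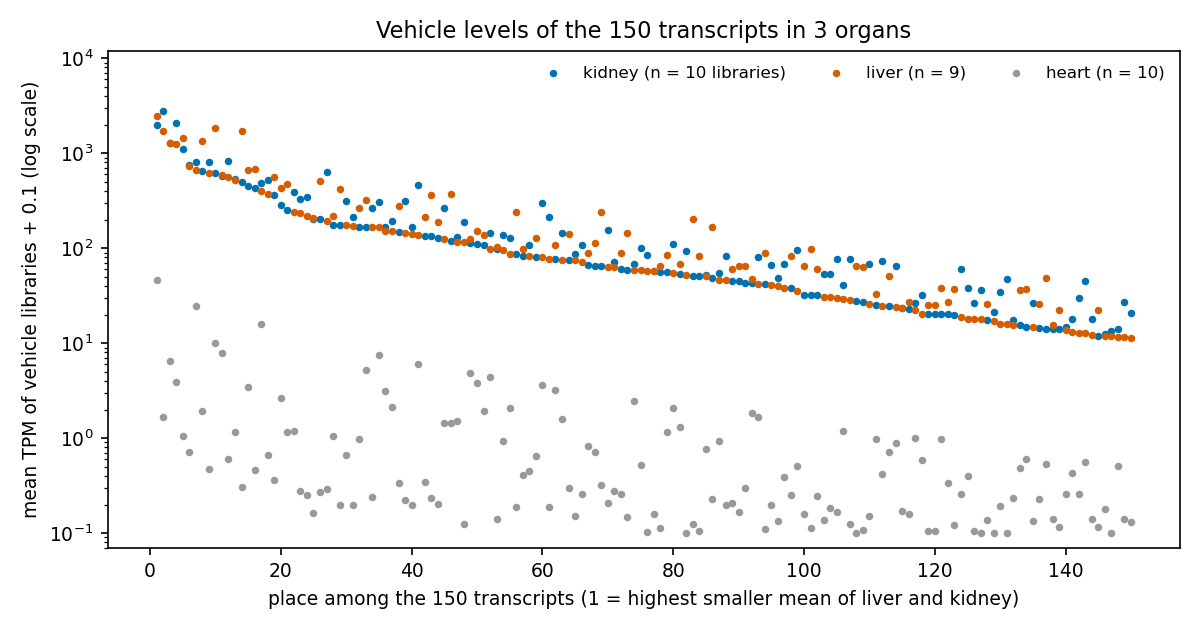
Mean TPM plus 0.1 (log axis) of each of the 150 transcripts in vehicle libraries of kidney (blue, n = 10), liver (orange, n = 9), and heart (gray, n = 10), ordered by the smaller of the liver and kidney means. Liver and kidney points run together from about 1971 down to 11.1 TPM, and the heart points lie below them for every transcript, as the rule required.

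Together the members took 1.89% to 4.001% of the transcript TPM of a liver library, 2.53% to 3.80% of a kidney library, and 0.0182% to 0.0488% of a heart library. The estimated counts of a library summed to between 16332764 and 36303248. The liver libraries MS-1, labelled vehicle at 24 h, and MS-9, labelled low dose at 8 h, held nearly the same counts, with 99.96% of 15797 transcripts within 1 count. At least one of these labels is therefore in doubt, and both libraries were left out of every main value, leaving 4 liver libraries in each of those groups. Values with both kept are given where they differ. In 6 liver libraries, between 18.6% and 28.9% of all counts fell on the genomic intervals that the reference also lists, and the members' summed TPM in each of them was below that of the other libraries of its group. They were 1 vehicle, 2 low-dose, and 1 high-dose library at 8 h and 2 vehicle libraries at 24 h. Results were recomputed without these libraries and with the share of interval counts as a covariate, and the values are given where the count changed by more than 1.5 times.

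At 24 h after the high dose, most of the members fell in the liver. Of 148 tested, 121 fell and 3 rose, against 13.6% of all 17137 transcripts tested that fell and 13.2% that rose. Among transcripts with at least 11.1 TPM in the vehicle libraries of both organs, 25.98% fell. A transcript was called when its adjusted p was no more than 0.01 in edgeR's quasi-likelihood test and its fold change at least 0.60 on the natural-log scale, which is 0.866 on the log2 scale. The median log2 fold change of the members was -1.71, where that of all transcripts was 0.04, and 50 members reached -2 or below. In whole tissue, fewer cells that carry a transcript and less of it per cell cannot be told apart. The members were chosen for high levels in vehicle libraries that also serve here as controls, so the count was repeated with members chosen on the vehicle libraries of the 8 h rats alone. Of these, 116 fell and 4 rose. With MS-1 and MS-9 kept, 107 members were called, and without the 6 libraries rich in interval counts, 111 were called with 5 libraries against 2. On the log2(TPM + 1) scale with limma, the median of all transcripts rose by 0.74 and that of the members was -0.63, so the members were lower by 1.37 relative to all transcripts. On that scale 52 fell and 5 rose, and 7081 of the 7610 transcripts called rose.

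**Figure D2:**
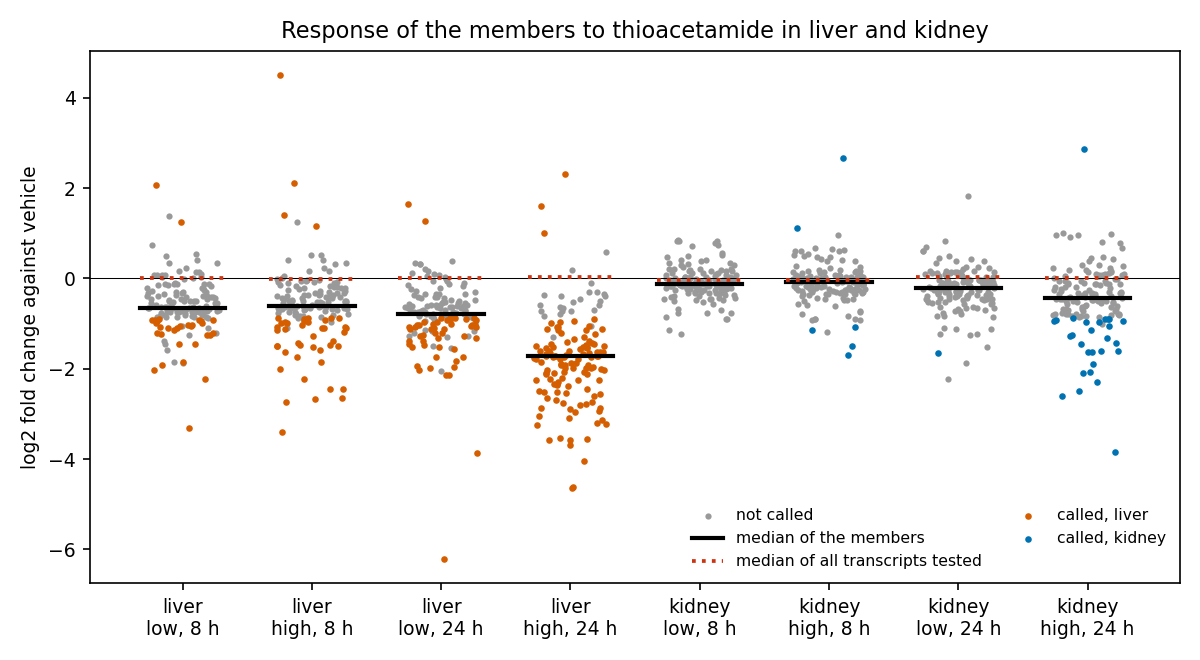
Log2 fold change against vehicle of each member (points) in liver and kidney at 2 doses and 2 times, from edgeR. Orange and blue points passed both limits, the black bar is the median of the members, and the dotted line is the median of all transcripts tested. The members' median is -1.71 in the liver and -0.42 in the kidney 24 h after the high dose.

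The largest falls among the members in the liver 24 h after the high dose were those of ENSRNOT00000085203, ENSRNOT00000015316, ENSRNOT00000005851, and ENSRNOT00000024054, followed by the pair ENSRNOT00000080096 and ENSRNOT00000071447. CPM, the count relative to the library's total after TMM scaling within the organ, is used for levels of a transcript between libraries. ENSRNOT00000085203 stood at 9.75, 58.6, 97.1 and 129 CPM with vehicle and at 2.52, 2.82, 3.12, 3.24 and 3.50 CPM after the high dose. Its log2 fold change was -4.64 (SE 0.59, adjusted p = 0.000131). The groups did not overlap, although the vehicle libraries themselves spread widely. ENSRNOT00000015316 had vehicle values of 14.7, 81.1, 84.98 and 129.6 CPM and high-dose values of 0.880, 2.26, 2.52, 2.90 and 7.56 CPM, with a log2 fold change of -4.62 (SE 0.68, adjusted p = 0.000322). Its values after the low dose were 0.396, 0.783, 1.06, 1.23 and 1.69 CPM, a log2 fold change of -6.21 (SE 0.62, adjusted p = 0.000152), and the log2 difference between the doses was 1.63 (SE 0.53, adjusted p = 0.0373), short of the limit. ENSRNOT00000005851 was tighter. Its vehicle libraries held 62.2, 81.5, 85.04 and 100.6 CPM, the low-dose libraries 18.5, 23.05, 23.99, 25.5 and 32.3 CPM, and the high-dose libraries 4.10, 4.15, 4.69, 4.96 and 7.78 CPM. The 3 groups were apart and in order of dose, with log2 fold changes of -1.75 and -4.05 (SE 0.22, adjusted p = 3.8e-06). At 8 h the same transcript showed -0.05 after the high dose (adjusted p = 0.902). ENSRNOT00000024054 had 14.04, 19.05, 35.1 and 52.2 CPM with vehicle and 2.11, 2.14, 2.22, 2.68 and 2.89 CPM after the high dose, a log2 fold change of -3.69 (SE 0.37, adjusted p = 3.09e-05).

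Falls were already present after the low dose and at 8 h, in fewer members. With the low dose at 24 h, 49 of 147 members fell and 2 rose, against 4.15% and 4.89% of all transcripts, with a median log2 fold change of -0.78. All 51 were also called in the same direction after the high dose, a comparison that shares its vehicle libraries. At 8 h, 29 of 150 members fell and 2 rose after the low dose, against 3.25% and 4.25% of all transcripts, and 41 of 148 fell and 4 rose after the high dose, against 7.75% and 12.4%. Of transcripts as abundant as the members in both organs, 5.64% and 9.13% fell 8 h after the low and the high dose and 8.15% at 24 h after the low dose. The members' medians at 8 h were -0.65 after the low dose and -0.61 after the high dose. The low-dose count of 31 at 8 h was 11 without the interval-rich libraries. On the log2(TPM + 1) scale, where the median of all transcripts rose by 0.17 after the low dose and by 0.11 after the high dose at 8 h, 6 members fell and 3 rose after the low dose and 23 fell and 4 rose after the high dose. The members' medians relative to all transcripts on that scale were -0.54 and -0.53. How many of all transcripts were called on that scale at 8 h, or at 24 h after the low dose, is not given here. The low-dose count at 24 h was 12 with MS-1 and MS-9 kept, and on the log2(TPM + 1) scale, where the median of all transcripts rose by 0.59, 11 members rose and 7 fell. The members' median on that scale was 0.04, or -0.55 relative to all transcripts, so the low-dose fall at 24 h depends on the scaling. Of the 150 members, 10 fell in all 4 liver comparisons, 39 fell at both times after the high dose, 28 fell 24 h after both doses and 8 h after neither, and 47 fell 24 h after the high dose and in none of the other 3. No member was called in opposite directions in 2 liver comparisons. These joint counts were not made for all transcripts, and the 2 doses at each time share their vehicle libraries.

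**Figure D3:**
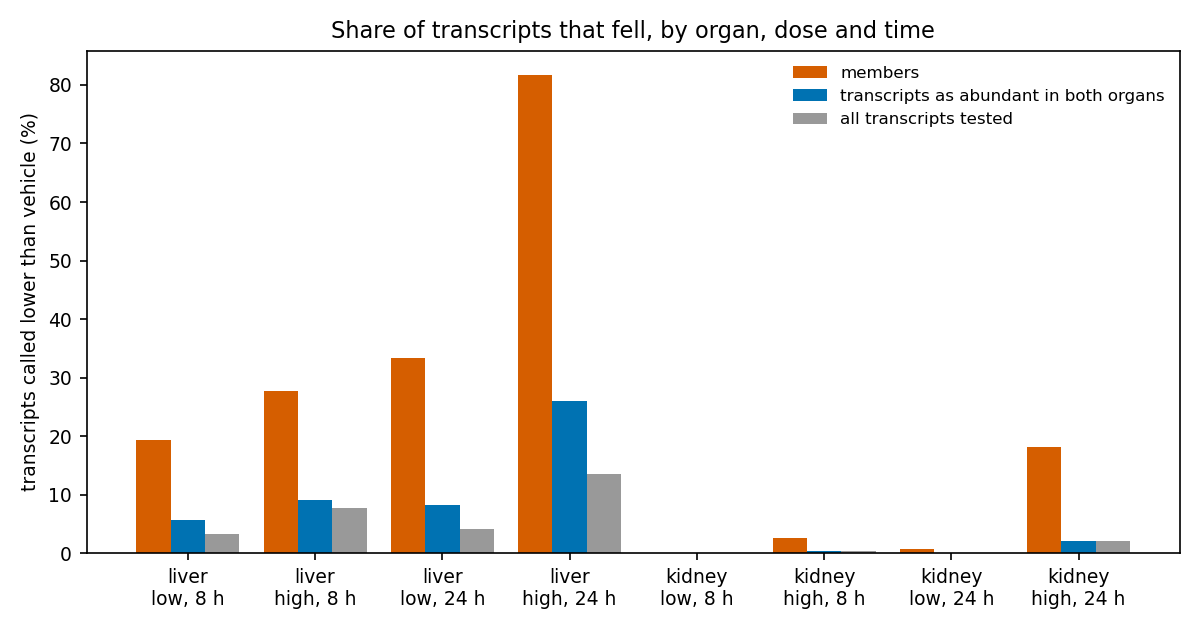
Percent of transcripts that fell against vehicle in each comparison, for the members (orange), for all transcripts with at least 11.1 TPM in vehicle libraries of both organs (blue), and for all transcripts tested (gray). In the liver 24 h after the high dose the 3 shares are 81.8%, 25.98%, and 13.6%, and in the kidney 18.1%, 2.03%, and 2.04%.

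The high dose was also set against the low dose directly, which uses none of the libraries that chose the members. In the liver at 24 h, 57 of 147 members were lower after the high dose and 1 was higher, against 3.84% and 2.76% of 17101 transcripts and 7.99% lower among those as abundant in both organs, with a median log2 difference of -0.83. The lower members included ENSRNOT00000005851, with a difference of -2.26 (SE 0.20, adjusted p = 0.000561), and ENSRNOT00000012948, with -2.07 (SE 0.35, adjusted p = 0.00232). The higher one was ENSRNOT00000038480, with 1.07 (SE 0.18, adjusted p = 0.00233). At 8 h in the liver 1 member was higher and 1 lower, against 1.75% and 0.546% of all transcripts, and the median difference was 0.01. They were ENSRNOT00000077177, higher, and ENSRNOT00000075035, lower, the latter named after its values were seen. Leaving out the low-dose library MS-7 lowered the 24 h count from 58 to 32, and leaving out MS-2, MS-6, or MS-26 lowered it to 37 or 38. The 8 h count of 2 was 1 without MS-12, MS-15, MS-18, or MS-11, 4 without MS-94 or MS-8, and 0 without the interval-rich libraries.

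The kidney had fewer calls among the same transcripts. At 24 h after the high dose, 27 of 149 members fell and 1 rose, against 2.04% and 2.15% of 18967 transcripts, and the median log2 fold change was -0.42. Leaving out 1 library gave 19 to 38. The largest falls were those of ENSRNOT00000012948 at -3.84, ENSRNOT00000088164 at -2.59, ENSRNOT00000074209 at -2.49, ENSRNOT00000074990 at -2.29, and ENSRNOT00000017454 at -2.09. After the low dose at 24 h, 1 of 149 members fell, against 0.0216% of all transcripts that fell and 0.0377% that rose. It was ENSRNOT00000010984, from 279, 323, 368, 384 and 603 CPM with vehicle to 97.5, 125, 128, 132 and 138 CPM, with a log2 fold change of -1.66 (SE 0.20, adjusted p = 0.00889). The libraries did not overlap, but the call was lost when any one of MS-34, MS-103, MS-50, MS-51, MS-32, MS-35, MS-37, or MS-52 was left out, with an adjusted p of up to 0.0379. DESeq2 called 10 members there. All shares of transcripts given here are those of edgeR, and the shares that DESeq2 called are not given. At 8 h none of 150 members was called after the low dose, against 0.175% of all transcripts that rose and 0.0425% that fell. In the same edgeR test 34 members had an unadjusted p under 0.05, as did 2243 of all 18829 transcripts, and DESeq2 called 4 members. After the high dose at 8 h, 4 fell and 2 rose, against 0.409% and 1.09%. DESeq2 called 11, and the count of 6 was 3 without any one of MS-58, MS-59, MS-101, or MS-57, and 9 without MS-100. High against low dose in the kidney gave 1 member at each time, against 0.371% of all transcripts higher and 0.113% lower at 8 h and 0.276% higher and 0.106% lower at 24 h. At 8 h it was ENSRNOT00000077177, and at 24 h ENSRNOT00000078979, which also was the member called in the kidney but not in the liver 24 h after the high dose. It was named after its values were seen. The 24 h count was 9 without MS-35, and the 8 h count was 0 without any one of 9 libraries, MS-39, MS-42, MS-45, MS-48, MS-108, MS-98, MS-101, MS-102, or MS-57.

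The difference in response was tested as the interaction of dose and organ, at an adjusted p of no more than 0.01 with no limit on its size. At 24 h after the high dose the log2 fold change was lower in liver than in kidney for 84 of 150 members and higher for 2, against 7.05% and 6.69% of 20557 transcripts, and 19.5% of transcripts at least as abundant in both organs were lower. With MS-1 and MS-9 kept, 50 members were called. The median difference was -1.22. At 8 h after the high dose, 32 were lower in liver and 3 higher, against 5.86% and 8.53%, and 13.7% of transcripts at least as abundant in both organs were lower. After the low dose, 12 members were lower and none higher at 8 h, against 1.40% and 1.01%, and 10 were lower and 2 higher at 24 h, against 0.928% and 1.55%. Of transcripts at least as abundant in both organs, 4.63% were lower at 8 h and 2.48% at 24 h after the low dose. DESeq2 called 33 and 37 members after the low dose at 8 and 24 h, while the shares given for all transcripts are those of edgeR. At 8 h the count of 12 ranged from 5 without MS-45 to 23 without MS-100, was 5 to 7 without any one of MS-15, MS-46, MS-58, MS-59, MS-39, or MS-42, and was 5 without the interval-rich libraries, 3 of which are in these groups. At 24 h the count of 12 was 6 without MS-19, 7 without any one of MS-20, MS-2, MS-5, MS-22, MS-23, MS-31, or MS-50, 4 without the interval-rich libraries, and 3 with MS-1 and MS-9 kept. The smallest adjusted p 24 h after the high dose belonged to ENSRNOT00000005851, whose organ difference was -3.94 (SE 0.28, adjusted p = 2.01e-07). Its kidney libraries held 41.2, 57.5, 71.96, 74.2 and 76.2 CPM with vehicle and 53.5, 57.1, 58.6, 61.9 and 81.5 CPM after the high dose, and overlapped. It was followed by ENSRNOT00000015810 at -2.38 (SE 0.21, adjusted p = 8.21e-07) and ENSRNOT00000000434 at -2.29 (SE 0.23, adjusted p = 2.22e-06).

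ENSRNOT00000028033 and ENSRNOT00000016677 had opposite signs in liver and kidney 24 h after the high dose. ENSRNOT00000028033 had 482, 583, 618 and 768 CPM in vehicle livers and 58.5, 59.5, 61.8, 71.3 and 155 CPM after the high dose, and fell with a log2 fold change of -2.97. In the kidney it had 151, 269, 269.8, 374 and 404 CPM with vehicle and 495, 538, 598, 604 and 667 CPM after the high dose. Those groups did not overlap either, but the change of 0.97 (SE 0.22, adjusted p = 0.0134) missed the limit, and the organ difference was -3.88 (SE 0.40, adjusted p = 2.78e-06). ENSRNOT00000016677 changed by -0.73 in the liver and 0.78 in the kidney, both below the limit on size (adjusted p = 0.000674 and 0.000922), with an organ difference of -1.46 (SE 0.16, adjusted p = 6.06e-06). At 8 h after the high dose the 5 smallest adjusted p values were those of ENSRNOT00000009299, ENSRNOT00000019106, ENSRNOT00000075280, ENSRNOT00000004256, and ENSRNOT00000085203. ENSRNOT00000009299 went from 31.8, 32.5, 33.2, 41.1 and 42.4 CPM to 13.5, 14.3, 17.99, 18.2 and 19.1 CPM in the liver and from 46.6, 48.1, 48.6, 52.5 and 54.2 CPM to 69.3, 70.99, 75.2, 81.6 and 84.5 CPM in the kidney. All treated livers were lower and all treated kidneys higher than their vehicle libraries, with an organ difference of -1.70 (SE 0.16, adjusted p = 8.92e-07). Its kidney change of 0.61 was below the limit on size. For the other 4 the organ differences lay between -3.26 and -1.19, all lower in liver.

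**Figure D4:**
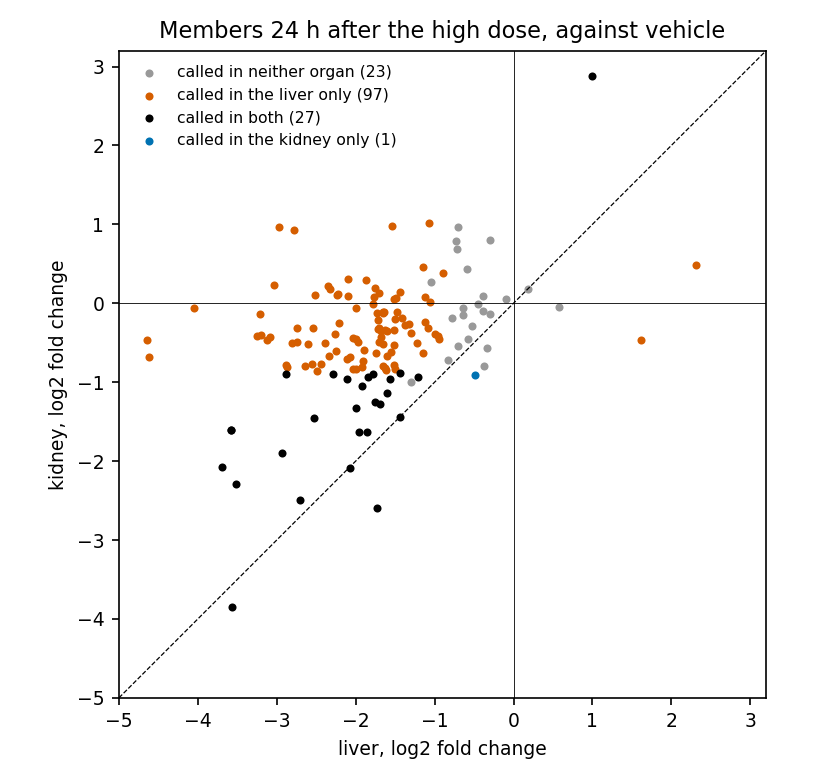
Log2 fold change of 148 members 24 h after the high dose in liver (x axis) and kidney (y axis), colored by where the member was called, with the line of equal change dashed. Most points lie left of the dashed line and below 0 on the x axis, 97 members were called in the liver only, 27 in both organs, and 1 in the kidney only.

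In all, 27 members were called in both organs 24 h after the high dose, which is 21.8% of those called in the liver and 96.4% of those called in the kidney, and all 27 had the same direction. The 96.4% stands beside the 83.8% of all tested members that were called in the liver. Falls made up 121 of the 124 liver calls and 27 of the 28 kidney calls. The same overlap was not computed for all transcripts, so it is given as a description. Across the 148 members tested in both organs the log2 fold changes had a Pearson r of 0.40 and a Spearman rho of 0.34, a description over transcripts that share libraries, and 112 were below 0 in both organs. At 8 h after the high dose 5 members were called in both. For some members the falls in liver and kidney were of like size. ENSRNOT00000012948 went from 44.3, 57.4, 62.5 and 63.4 CPM to 1.43, 3.80, 4.88, 6.60 and 8.32 CPM in the liver and from 89.3, 90.2, 90.9, 94.8 and 104.5 CPM to 4.59, 5.38, 5.78, 7.44 and 10.3 CPM in the kidney. Its log2 fold changes were -3.56 (SE 0.39, adjusted p = 5.47e-05) and -3.84 (SE 0.21, adjusted p = 1.8e-06), and in each organ at each dose and time the treated libraries were all below the vehicle libraries. The organ difference 24 h after the high dose was 0.33 (SE 0.44, adjusted p = 0.658), while at 8 h the fall was larger in the liver, with an organ difference of -1.54 (SE 0.24, adjusted p = 0.000114).

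ENSRNOT00000017454 went from 188, 222, 296 and 312 CPM to 20.9, 44.6, 68.4, 88.4 and 92.7 CPM in the liver and from 168, 212, 214, 295 and 332 CPM to 49.2, 50.3, 51.1, 60.6 and 81.4 CPM in the kidney. Its log2 fold changes of -2.07 and -2.09 differed by 0.07 (SE 0.44, adjusted p = 0.951). At 8 h its libraries overlapped with vehicle in both organs. ENSRNOT00000074209 had 85.5, 110.00, 199.99 and 275 CPM in vehicle livers and 12.7, 24.7, 25.7, 28.3 and 42.1 CPM in livers after the high dose. Its vehicle kidneys had 330.1, 335, 345, 398 and 461 CPM and its high-dose kidneys 58.2, 60.8, 63.2, 65.7 and 90.9 CPM. The groups were apart in both organs, with log2 fold changes of -2.70 and -2.49. ENSRNOT00000024054, ENSRNOT00000080096, and ENSRNOT00000071447 fell in both organs and further in the liver, with organ differences of -1.56 for the first and -1.92 for the pair (adjusted p = 0.00939 and 0.00374). The others of the 10 with the largest change shared by both organs were ENSRNOT00000074990, ENSRNOT00000065791, ENSRNOT00000088164, ENSRNOT00000084372, and ENSRNOT00000010984, with log2 fold changes between -3.52 and -1.74 in the liver and between -2.59 and -1.63 in the kidney. None of these 5 had an organ difference that passed the limit.

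In the 4 liver comparisons with vehicle, 4 of the 150 members rose in at least 1. ENSRNOT00000077177 had the largest rise. In the liver at 8 h it stood at 31.6, 42.8, 47.8, 51.4 and 54.4 CPM with vehicle, 138, 177, 191 and 267 CPM after the low dose, and 672, 839.8, 1036, 1142 and 1406 CPM after the high dose. The 3 groups were apart, and the log2 fold changes were 2.07 and 4.51 (SE 0.25, adjusted p = 1.36e-06). In the kidney at 8 h the values were 26.9, 27.05, 28.4, 28.8 and 40.04 CPM with vehicle and 100.96, 151, 153, 245 and 311 CPM after the high dose, a log2 fold change of 2.67 (SE 0.28, adjusted p = 0.000309), and the rise was larger in the liver by 1.85 (SE 0.36, adjusted p = 0.000931). At 24 h the kidney had the larger value. It held 106.9, 145, 225, 416 and 434 CPM after the high dose against 25.1, 26.6, 36.7, 38.3 and 50.6 CPM with vehicle, a log2 fold change of 2.88, SE 0.41, adjusted p = 0.000921. The liver held 66.1, 66.4, 84.02, 111 and 116 CPM after the high dose against 25.8, 40.2, 44.2 and 61.6 CPM with vehicle, a log2 fold change of 0.998, SE 0.27, adjusted p = 0.00969. This organ difference of -1.82 missed the limit (adjusted p = 0.0136). The liver call at 24 h was lost without any one of MS-4, MS-19, MS-20, MS-3, MS-6, or MS-91 (adjusted p up to 0.0296), and the log2 fold change was -0.01 with MS-1 and MS-9 kept.

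ENSRNOT00000020225 rose in all 4 liver comparisons, by 1.25 and 2.11 on the log2 scale at 8 h and by 1.65 and 1.61 at 24 h after the low and the high dose. At 24 h the vehicle livers had 84.9, 116, 121 and 126 CPM and the high-dose livers 281, 293, 351, 399 and 444 CPM. With MS-1 and MS-9 kept the 24 h values were 0.60 and 0.65, and neither was called. The low-dose call at 8 h was lost without MS-29, MS-12, MS-15, or MS-94 (adjusted p up to 0.0132). In the kidney it rose 8 h after the high dose, from 439.7, 459.8, 465, 549.6 and 803 CPM to 989, 1062, 1138, 1233 and 1441 CPM, a log2 fold change of 1.11, SE 0.18, adjusted p = 0.00424. That call was lost in 7 of the 10 refits that left out 1 library (MS-40, MS-46, MS-58, MS-59, MS-98, MS-101, or MS-57, adjusted p up to 0.0163). At 24 h the kidney value was -0.47 (adjusted p = 0.141), and the organ difference was 2.13 (SE 0.29, adjusted p = 3.6e-05). ENSRNOT00000038480 rose in the liver 8 h after the high dose (1.16) and 24 h after both doses, from 239, 264, 275 and 283 CPM with vehicle at 24 h to 485, 611, 668, 735 and 748 CPM after the low dose and 974, 1226, 1271, 1577 and 1788 CPM after the high dose. Its log2 fold changes were 1.28 and 2.32 (SE 0.19, adjusted p = 1.28e-05), against 0.48 (SE 0.13, adjusted p = 0.0308) in the kidney after the high dose, and the organ difference was 1.89 (SE 0.24, adjusted p = 2.15e-05). With MS-1 and MS-9 kept its low-dose value at 24 h was 1.05 and was not called. ENSRNOT00000011711 was called up in the liver 8 h after the high dose alone, at 1.41 (SE 0.15, adjusted p = 3.19e-05). At 24 h it had -0.79 (adjusted p = 0.00872), below the limit on size.

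**Figure D5:**
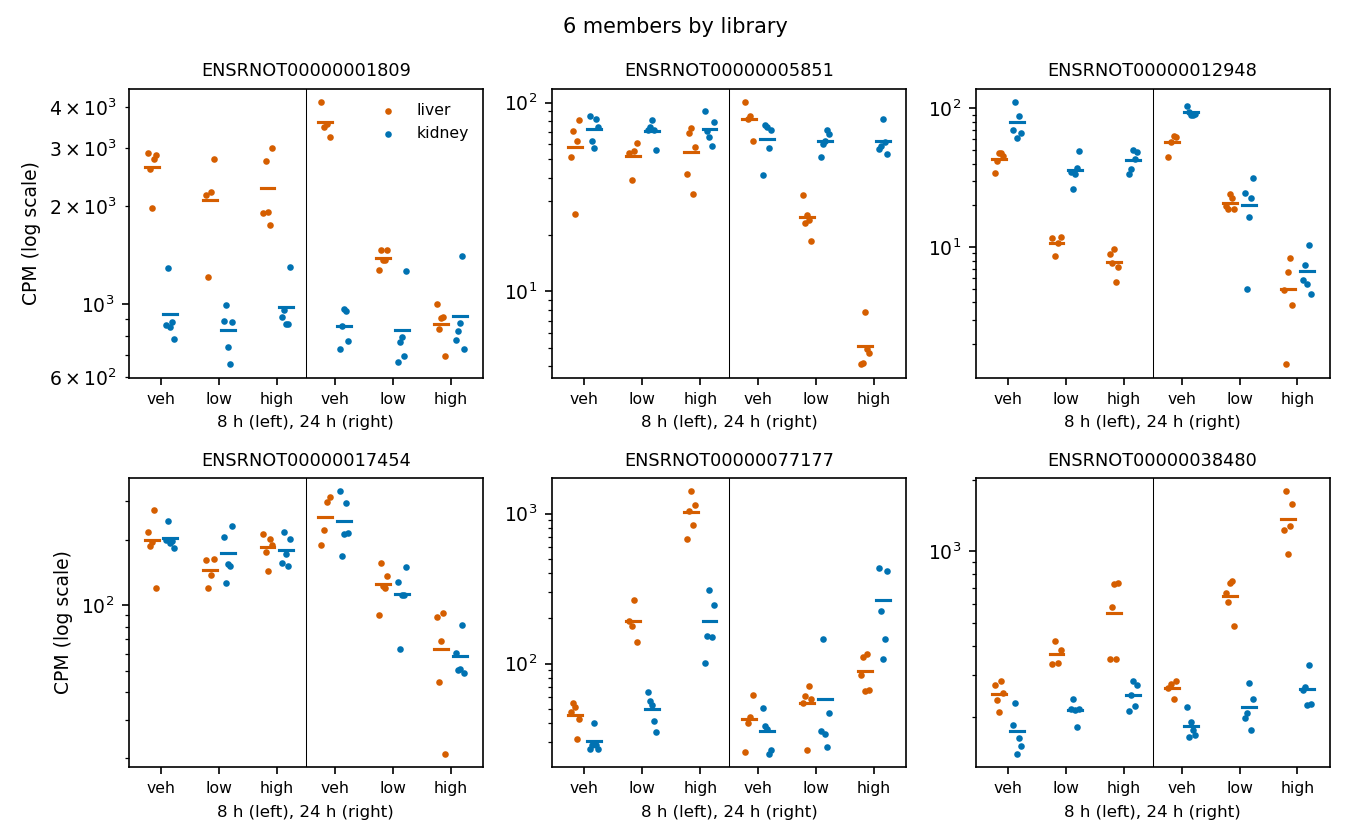
CPM (log axis) of 6 members in every liver (orange) and kidney (blue) library used, by time and dose, with the mean of each group as a bar. ENSRNOT00000001809 and ENSRNOT00000005851 are lower than vehicle in every treated liver library at 24 h while the treated kidney libraries overlap with vehicle, ENSRNOT00000012948 and ENSRNOT00000017454 are lower in both organs 24 h after the high dose, and 24 h after the high dose ENSRNOT00000077177 and ENSRNOT00000038480 are above vehicle in both organs, although the kidney change of ENSRNOT00000038480 missed the limits and the liver libraries of ENSRNOT00000077177 overlap with vehicle after the low dose.

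Falls shared by both organs were also found 8 h after the high dose, for 3 members. ENSRNOT00000063222, of 120 bases and with low counts, fell in the liver from 0.788, 1.29, 1.69, 2.03 and 2.40 CPM to 0.169, 0.222, 0.251, 0.267 and 0.351 CPM after the high dose and in the kidney from 1.51, 1.92, 2.34, 2.73 and 2.88 CPM to 0.496, 0.551, 0.669, 0.731 and 1.04 CPM. The groups did not overlap in either organ, but the kidney call was lost without any one of 8 libraries (MS-40, MS-46, MS-58, MS-59, MS-38, MS-101, MS-102, or MS-57, adjusted p up to 0.0256). ENSRNOT00000089893 had log2 fold changes of -2.64 in the liver and -1.49 in the kidney. The kidney call was lost without MS-58, MS-59, MS-98, MS-101, MS-102, or MS-57 (adjusted p up to 0.0125). ENSRNOT00000028436 had -2.44 and -1.07, with an organ difference of -1.37 (SE 0.28, adjusted p = 0.00141). ENSRNOT00000074209 fell in the kidney 8 h after the high dose, with -1.15, and in the liver after the low dose, with -2.23. In the liver at 8 h ENSRNOT00000012948 fell after both doses, with log2 fold changes of -2.02 and -2.44. ENSRNOT00000085203 fell after the high dose, with -3.40. ENSRNOT00000015316 had -3.31 after the low dose and -2.75 after the high dose. Its 8 h vehicle libraries ran from 9.81 to 117 CPM, and each of these calls was lost when any one of 6 libraries was left out (MS-13, MS-29, MS-12, MS-15, MS-18, or MS-94 for the low dose, adjusted p up to 0.0244, and MS-13, MS-29, MS-8, MS-14, MS-17, or MS-27 for the high dose, up to 0.0157).

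The 10 most abundant members all fell in the liver 24 h after the high dose, and none was called in the kidney in any comparison. The highest level was that of ENSRNOT00000067391, with 2488 ± 1073 TPM in vehicle livers (SD, n = 9), 1971 ± 387 TPM in vehicle kidneys (SD, n = 10), and a mean of 45.7 TPM in heart, the highest of any member there. Its liver values at 24 h were 471, 609.8, 740.02 and 797 CPM with vehicle and 109.6, 187, 254, 259.8 and 351 CPM after the high dose, and its kidney values 415, 446, 490.3, 498 and 559 CPM and 454, 1012, 1094, 1115 and 1162 CPM. The log2 fold changes were -1.54 (SE 0.30, adjusted p = 0.00165) in the liver and 0.99 (SE 0.22, adjusted p = 0.0125) in the kidney, and the organs differed by -2.48 (SE 0.40, adjusted p = 0.000184). In the kidney 1 high-dose library, MS-54, was within the vehicle range. Without it the kidney value was 1.17 (adjusted p = 0.000109), and DESeq2 and limma on log2(TPM + 1) also called it up. The liver call was not made with MS-1 and MS-9 kept (a log2 fold change of -1.25). ENSRNOT00000001809 fell after both doses. At 24 h its livers held 3248, 3487, 3552 and 4145 CPM with vehicle, 1274, 1366, 1371, 1462 and 1465 CPM after the low dose, and 696, 841, 912, 917 and 1006 CPM after the high dose, and its kidneys 729.97, 776, 863, 954 and 967 CPM with vehicle and 732, 779.5, 832, 879.8 and 1402 CPM after the high dose. The liver values were -1.39 and -2.09 (SE 0.14, adjusted p = 5.66e-06), and the kidney value was 0.09 (SE 0.18, adjusted p = 0.806). For the other 8 the liver values after the high dose at 24 h lay between -2.33 (ENSRNOT00000044944) and -1.33 (ENSRNOT00000018325) and the kidney values between -0.26 (ENSRNOT00000018325) and 0.20 (ENSRNOT00000017840). The organ difference passed the limit for all 10. The liver call of ENSRNOT00000017969 was lost without any one of MS-19, MS-20, MS-21, MS-6, MS-24, or MS-26, with an adjusted p of up to 0.0139. Falls in the liver 24 h after the high dose were spread over the whole range of levels, with 46 among the 50 most abundant members, 42 among the next 50, and 33 among the last 50, while in the kidney 6, 10, and 11 fell.

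The response also changed with time. After the high dose, the log2 fold change was lower at 24 h than at 8 h for 49 of 150 members in the liver and higher for 2, against 5.43% and 4.78% of 18398 transcripts, by the interaction of dose and time at an adjusted p of no more than 0.01. The median difference was -1.004. The liver count of 51 was 33 with MS-1 and MS-9 kept and 28, all lower, without the interval-rich libraries. In the kidney it was lower for 13 and higher for none, against 0.591% and 0.276% of 19959 transcripts. DESeq2 called 25 members in the kidney, where the shares given for all transcripts are those of edgeR. The count of 13 was 7 or 8 without any one of MS-46, MS-59, MS-57, MS-36, MS-54, or MS-56. Between the vehicle libraries of 8 and 24 h edgeR called no member and no other transcript in either organ. An unadjusted p under 0.05 in that test was reached in liver by 23 of 149 members, beside 1438 of all 16022 transcripts tested. Kidney had 2 of 149 members below that p, beside 334 of all 18676 transcripts tested.

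The treated libraries were not used to choose the members, and the limits of the rule were applied to the mean TPM of each treated group. At 24 h after the high dose 120 of 150 members still met them, compared with 133 after the low dose. At 8 h the counts were 130 and 129 after the high and the low dose. Vehicle libraries of 1 time gave 146 at 8 h and 144 at 24 h, and these had helped to choose the members. Taken singly 24 h after the high dose, the 4-fold limit between liver and kidney was met by 131, the 20-fold limit over heart by 133 in the liver and by 143 in the kidney. The median TPM of the members in the liver at 24 h was 70.5 with vehicle, 73.1 after the low dose, and 49.7 after the high dose, and in the kidney 71.97, 70.6, and 69.2. The members' share of the transcript TPM was 3.22% ± 0.589 (SD, n = 4) in vehicle livers at 24 h and 2.14% ± 0.144 (SD, n = 5) after the high dose, and these groups did not overlap. The livers of the low dose at 24 h had shares of 2.86%, 3.19%, 3.22%, 3.24%, and 3.43%, within the range of the vehicle livers. The lower part of that range came from the interval-rich vehicle libraries MS-19 (2.64%) and MS-21 (2.79%). The other vehicle livers, MS-4 (3.81%) and MS-20 (3.64%), were above every low-dose liver. The same interval-rich libraries enter the vehicle median of 70.5 TPM, so these TPM values do not show whether the members were unchanged after the low dose. In the kidney at 24 h the share was 3.09% ± 0.225 with vehicle and 3.31% ± 0.282 after the high dose (SD, n = 5 each).

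In heart the members also had low levels after treatment. Their share of the transcript TPM at 24 h was 0.0225% ± 0.00539 with vehicle, 0.0318% ± 0.00999 after the low dose, and 0.0373% ± 0.00979 after the high dose (SD, n = 5 each). Their median heart level was 0.280 TPM with vehicle and 0.197 TPM after the high dose. ENSRNOT00000067391 had the highest heart level of the members with vehicle. Its heart values at 24 h were 31.96 to 80.4 TPM with vehicle (median 38.4) and 58.9 to 299.7 TPM after the high dose (median 133.7), and the groups overlapped. At 8 h they were 26.98 to 99.4 TPM with vehicle (median 35.7) and 69.5 to 142.8 TPM after the high dose.

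Of the 150 members, 22 were called in neither organ in any comparison with vehicle, 23 in no liver comparison, and 118 in no kidney comparison. These counts were also not made for all transcripts. Some members tested and not called in the liver 24 h after the high dose passed 1 of the limits. Examples that passed the limit on p but not on size were ENSRNOT00000078703 (-0.82, adjusted p = 0.000331), ENSRNOT00000003918 (-0.70, adjusted p = 0.0016), and, with a positive value, ENSRNOT00000011485 (0.58, adjusted p = 0.00846). ENSRNOT00000051075 (-1.30, adjusted p = 0.0105) and ENSRNOT00000090819 (-1.05, adjusted p = 0.6) passed the limit on size but not on p. ENSRNOT00000060530 had -0.09 and ENSRNOT00000027346 0.18, with adjusted p = 0.828 and 0.19. These members were named after their values were seen. ENSRNOT00000080882 and ENSRNOT00000046799 did not pass the filter on low counts in the liver after the high dose at either time, and the same pair and ENSRNOT00000090819 did not pass it in the liver 24 h after the low dose. ENSRNOT00000080882 did not pass it in the kidney at 24 h.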

How the data were processed

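Poly-A RNA of liver, kidney, and heart was sequenced in 90 libraries. The authors pseudo-aligned the reads with kallisto 0.42.2 to Ensembl Rnor_6.0 targets (65166, of which 40071 are transcripts and 25095 genomic intervals) and deposited estimated counts and TPM per target, 1 library per file. Since TPM sums over all targets, a library with more counts on intervals has lower TPM for transcripts, and counts shared by similar transcripts are split by a model. Samples were grouped by organ, time, and dose from their labels. The labels do not say which libraries share a rat, so p-values measure the spread between libraries.

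Estimated counts of transcripts were rounded and tested with edgeR 4.0.16 (R 4.3.3; filterByExpr, TMM, quasi-likelihood test, Benjamini-Hochberg over all transcripts tested), each comparison on its own groups. Limits followed the study's (adjusted p of 0.01, natural-log fold change of 0.60). The libraries MS-1 and MS-9 were left out of all tests. The tests were run on simulated data, in which 22 of 100 transcripts changed 1 log2 unit and 71 of 100 changed 2 log2 units were called in the liver 24 h after the high dose (16779 tested), and 11 and 53 of 100 in the test between organs (20032 tested). Each simulation changed only 200 transcripts, drawn at random from those tested. In the real liver comparison 4598 of 17137 were called, so these shares do not give the recovery for the members. Alternatives were DESeq2 1.42.0, limma 3.58.1 on log2(TPM + 1), no filter, no fold limit, a term for library numbers above 90, leaving out each library, and, chosen after seeing the data, the interval share as a covariate, a block for libraries numbered 30 apart, and leaving out liver libraries with over 15% of counts on intervals. Figures were made with matplotlib 3.10.9 and tables with pandas 2.3.3.

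The members, gene lists, and tests were chosen with earlier results of these data known. Named are the 10 most abundant members, up to 5 rises and 5 falls with the largest change in each high-dose comparison, up to 2 of each at the low dose, the members called in both organs (at most 10), the 5 smallest p of the test between organs at each time after the high dose, and those at the edge of the rule. No table used here pairs the transcripts with genes, so gene lists, cell type markers, and sequences were not analysed here. With estimated counts, precision is given by the spread between libraries.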

Additional observations from a re-analysis of the deposited data

Results flagged for a closer look

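Among 138 groups of 4 or 5 libraries examined for the named members, 6 held 1 library far from the others, and chance flags about 1 group in 20. In the kidney 24 h after the high dose, ENSRNOT00000067391 had 453.6 CPM in MS-54 against 1012 to 1162 CPM in the other 4, ENSRNOT00000001809 had 1402 CPM in MS-106 against 732 to 879.8 CPM, and ENSRNOT00000074209 had 90.9 CPM in MS-33 against 58.2 to 65.7 CPM. In vehicle kidneys, ENSRNOT00000077177 had 40.04 CPM in MS-46 at 8 h against 26.9 to 28.8 CPM, and ENSRNOT00000084372 had 245 CPM in MS-31 at 24 h against 111 to 143 CPM. In the liver 24 h after the high dose, ENSRNOT00000005851 had 7.78 CPM in MS-24 against 4.10 to 4.96 CPM. The 6 values were in 6 different libraries, and their cause was not tested.

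The response differed between liver and kidney, by a test of the difference itself, for 12 members after the low dose and 35 after the high dose at 8 h, and for 12 and 86 at 24 h. After the high dose it differed between 24 h and 8 h for 51 members in the liver and 13 in the kidney.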

How the results depend on the processing

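The values below are counts of members called, with the main count first. For limma and DESeq2 the counts of all transcripts called are not given in this section, so these member counts have no background beside them. Under limma on log2(TPM + 1), the liver counts went from 31 to 9 (low dose, 8 h), 45 to 27 (high, 8 h), 51 to 18 (low, 24 h), 124 to 57 (high, 24 h), and 2 to 1 (high against low, 8 h), and the kidney counts from 0 to 1 (low, 8 h) and from 1 to 0 (low, 24 h, and high against low, 8 h). With DESeq2 the high against low counts were 8 in the liver at 8 h and 2 and 8 in the kidney at 8 and 24 h, the kidney counts against vehicle were 4 and 11 at 8 h after the low and the high dose and 10 at 24 h after the low dose, the organ differences after the low dose were 33 at 8 h and 37 at 24 h, and the time difference in the kidney was 25. With MS-1 and MS-9 kept, the liver count was 12 at 24 h after the low dose, the organ differences at 24 h were 3 and 50 after the low and the high dose, and the time difference in the liver was 33. A term for library numbers above 90 gave 2 in the kidney 8 h after the low dose, 0 for high against low at 8 h and for the low dose at 24 h, and 23 organ differences after the low dose at 8 h. Without a filter, or with members chosen on the vehicle libraries of the other time, 2 were called in the kidney 24 h after the low dose. With no limit on the fold change, the liver counts were 60, 76, and 5 at 8 h (low, high, high against low) and 91 at 24 h after the low dose, and the kidney counts 2 and 2 at 8 h (low, high against low) and 44 at 24 h after the high dose.

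Chosen after seeing the data, leaving out liver libraries with over 15% of counts on intervals gave 11 in the liver 8 h after the low dose, 0 for high against low at 8 h, 5 and 4 organ differences after the low dose at 8 and 24 h, and 28 time differences in the liver. The share of interval counts as a covariate gave 0 in the kidney for high against low at 8 h and for the low dose at 24 h, and 6 organ differences after the low dose at 24 h. Fewer libraries enter the first of these, and the cause was not tested for the others. A pseudocount of 1 TPM in the rule gave 72 transcripts meeting its limits 24 h after the high dose, against 120. The larger pseudocount makes the limit over heart stricter in the vehicle libraries as well. How many transcripts passed it there is not given, so 72 and 120 are not comparable and show no loss of members.

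Leaving out 1 library gave, in the liver, 21 to 34 and 41 to 52 at 8 h after the low and the high dose, 40 to 55 and 112 to 123 at 24 h, and 1 to 4 and 32 to 74 for high against low at 8 and 24 h. In the kidney it gave 0 to 1 and 3 to 9 at 8 h, 0 to 2 and 19 to 38 at 24 h, and 0 to 1 and 1 to 9 for high against low. Organ differences were 5 to 23 and 24 to 47 at 8 h and 6 to 14 and 68 to 86 at 24 h, time differences 41 to 62 in the liver and 7 to 19 in the kidney, and members meeting the rule's limits 118 to 122.

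Over 1355 alternative values of named members, 1258 kept their side of the limit and, where called, their direction. Of the rest, 93 lost the call, 3 gained one, and 1 value called in the main test changed sign. The last was ENSRNOT00000077177 in the liver 24 h after the high dose, at -0.010 with MS-1 and MS-9 kept. Sign changes between values not called in either setting are among the 1258. For example, ENSRNOT00000001809 in the kidney 24 h after the high dose went from 0.09 to as low as -0.12 when 1 library was left out. The labels do not say which liver and kidney libraries came from the same rat, and replicates were numbered in accession order. Chosen after seeing the data, liver and kidney libraries of the same time and dose with library numbers 30 apart were taken as 20 pairs, although no source states what the numbers mean. Their deviations from the group means correlated over transcripts with r from 0.0041 to 0.245, and 4 of 7 pairs at most were over 0.1. In each comparison 5 to 7 of the 6 or 7 kidney libraries correlated best with the liver library of their own number, a hint from the data and not from the design. With these pairs as a replicate block in edgeR, the organ differences were 0 and 0 at 8 h after the low and the high dose and 0 and 55 at 24 h, with 69, 59, 65, and 117 members at an unadjusted p under 0.05. How many of all transcripts had such a p with the block was not computed. The same libraries with no block gave 5 and 6 at 8 h and 4 and 64 at 24 h, so that part of the loss comes with fewer libraries. Members near 1 CPM or below, such as ENSRNOT00000063222, are limited by depth.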
